A study of Homo sapiens with 4 samples.

Results

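Ribosome biogenesis and RNA polymerase I genes were followed in Reh-6-MPR cells, a 6-MP-resistant derivative of the B-lineage acute lymphoblastic leukemia (B-ALL) cell line Reh. The set held 49 genes, fixed as a list of names and matched by symbol to the 29833 genes of the expression table, and all 49 were found. It covered core proteins and a chaperone of the small nucleolar ribonucleoproteins (5 genes), the nucleolar phosphoproteins NCL and NPM1 (2 genes) and the small subunit processome (13 genes). It also covered assembly of the large subunit (16 genes), late maturation of the small subunit (5 genes) and transcription by RNA polymerases I and III (8 genes). The 4 treatments of the same resistant line were sequenced, with 1 library each. Exposure lasted 48 h in each case. The first received PBS as the vehicle, another 4 mM histidine, another 1.0 μg/mL 6-MP, and the last the 2 agents together at these doses. 6-MP (6-mercaptopurine) is a thiopurine antimetabolite used in maintenance therapy of acute lymphoblastic leukemia, and histidine is an essential amino acid. All groups carried the genotype label WT and the label 6-MP resistant, and no parental Reh library was analysed here. The comparison addressed how resistant cells respond to the agents given together rather than alone.

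Ribosomes are built in the nucleolus, where RNA polymerase I transcribes the precursor of most ribosomal RNA and RNA polymerase III makes the remaining small ribosomal RNA outside it. The precursor is modified by small nucleolar ribonucleoproteins, folded and cut within the small subunit processome and precursors of the large subunit, and released as subunits that mature in the cytoplasm. Proliferating leukemia cells depend on this pathway for protein synthesis, and many of its genes are known targets of the transcription factor MYC, which binds E-box sequences.

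The libraries rested on 12899122 to 15486376 reads, the combined treatment being the shallowest, and 25443 genes were above 0 in it against 23635 to 23978 in the other 3. Of 11 B-lineage markers, 10 were listed, and their summed level was 1568 to 1658 FPKM (fragments per kilobase of transcript, scaled to library size) over the 4 libraries, so the labelled lineage was present throughout. The T-cell list had TRAC alone of 5 markers, at 11.6 to 12.2 FPKM in the vehicle, histidine and 6-MP libraries and 32.1 in the combined library. The monocyte and granulocyte list had 4 of 5 markers, with sums of 27.0 to 31.2 FPKM in those 3 libraries and 43.7 in the combined library, mostly from MPO. The stromal and epithelial list had 2 of 4 markers, with sums of 0.869 to 1.06 FPKM in the 3 libraries and 2.11 in the combined library, and KRT8 was at 0 in the vehicle and histidine libraries. Other markers of these lists were not analysed here, and the part of these levels in the results was not tested.

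The 49 genes took a smaller share of the combined library than of any other. They received 0.90% of the reads of the vehicle library, 0.876% for histidine, 0.908% for 6-MP and 0.532% for the combination. The share did not rest on its most abundant members, since without NCL and NPM1 it was 0.559%, 0.55%, 0.561% and 0.343% in the same order. The median level of the 47 genes with a mean of at least 1 FPKM was 20.5, 20.2, 19.7 and 12.7 FPKM. The vehicle, histidine and 6-MP libraries lay together and the combined library lay below them. With 1 library per treatment no difference here has a replicate check and no test of treatments was possible. Since these are bulk libraries and FPKM are shares of a library, fewer cells of a type and less RNA per cell cannot be told apart.

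For each gene the log2 fold change was the difference of log2(FPKM + 1) between 2 libraries, a scale that understates the change of low genes. Against vehicle, the combined treatment gave a median log2 fold change of -0.71 over the 47 genes, with a range of -1.34 to 0.89, where the median of all 12750 genes at this level was 0.13. Relative to all genes the median of the set was therefore -0.84. At or below -1 there were 6 of the 47 genes (12.8%), where 1.51% of all genes passed. This count was 17 when libraries were scaled by the median ratio of all genes (2.64% of all genes), 12 with a pseudocount of 0.1 (2.62%) and 12 for read ratios without a pseudocount (2.79%). At or below -0.5 there were 37 (78.7%), where 7.37% of all genes passed. In the other direction no member reached 1 (5.01% of all genes) and 1 reached 0.5 (19.7% of all genes). The 95% interval of the read ratio, which covers counting error only and treats reads without molecular identifiers as independent, lay below 0 for 42 members (20.8% of all genes) and above 0 for 3 (42.7% of all genes). The members and their lists were known to vary in these data when they were drawn up, so these counts are descriptions of these libraries.

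The combined library was also set against each single agent. Against histidine alone the median of the 47 genes was -0.66, with 3 genes at or below -1 (1.4% of all genes) 37 at or below -0.5 (7.53% of all genes), and none at or above 1 (4.15% of all genes) or 0.5 (17.8% of all genes). The counting interval lay below 0 for 44 of them (22.1% of all genes) and above 0 for 1 (41.2% of all genes). Against 6-MP alone it was -0.73, with 5 genes at or below -1 (1.2% of all genes) 40 at or below -0.5 (6.88% of all genes), none at or above 1 (4.82% of all genes), and FBL at or above 0.5 (19.3% of all genes). Here the counting interval lay below 0 for 42 genes (21.2% of all genes) and above 0 for 2 (42.2% of all genes). The 3 comparisons share the combined library and are therefore not independent of each other. The combined library held the lowest level of 43 of the 47 genes, where it held the lowest level of 28.8% of all genes. It lay below the other 3 libraries by more than their whole range for 42 genes (89.4%), where 19.2% of all genes did so. The median range of the other 3 libraries over the members was 0.096 on the log2 scale. The departure from additivity, which subtracts the changes of histidine alone and of 6-MP alone from that of the combined treatment on the log2 scale, had a median of -0.70 over the 47 genes and 0.11 over all genes. It was at or below -0.5 for 40 members (8.49% of all genes) and at or below -1 for 5 (1.91% of all genes), and it reached neither 1 (4.85% of all genes) nor 0.5 (18.8% of all genes) for any member. The lowest departure, -1.43, was that of RRN3, which was not lowered by the combination. Against vehicle RRN3 was higher with the combination (0.89), with histidine alone (1.39) and with 6-MP alone (0.92). The other members at or below -1 were lower with the combination than with vehicle.

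Neither agent alone moved the set by a comparable amount. Histidine against vehicle had a median of -0.051 over the 47 genes and 0.015 over all genes, with no member at or below -1 (0.533% of all genes) or -0.5 (1.93% of all genes) and 2, RRN3 and FBL, at or above 0.5 (2.93% of all genes), and RRN3 alone reached 1 (0.8% of all genes). Of the 47 genes 35 (74.5%) were lower and 12 higher with histidine, where 45.3% of all genes were lower, and the counting interval lay below 0 for 9 (8.72% of all genes) and above 0 for 4 (12.9% of all genes). 6-MP against vehicle had a median of 0.015, where that of all genes was 0.0039, with no member at or below -1 (0.722% of all genes) or -0.5 (2.44% of all genes). Only RRN3 was at or above 0.5 (2.28% of all genes) and none reached 1 (0.463% of all genes). The counting interval lay below 0 for 5 members with 6-MP (7.91% of all genes) and above 0 for 3 (9.98% of all genes).

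**Figure D1:**
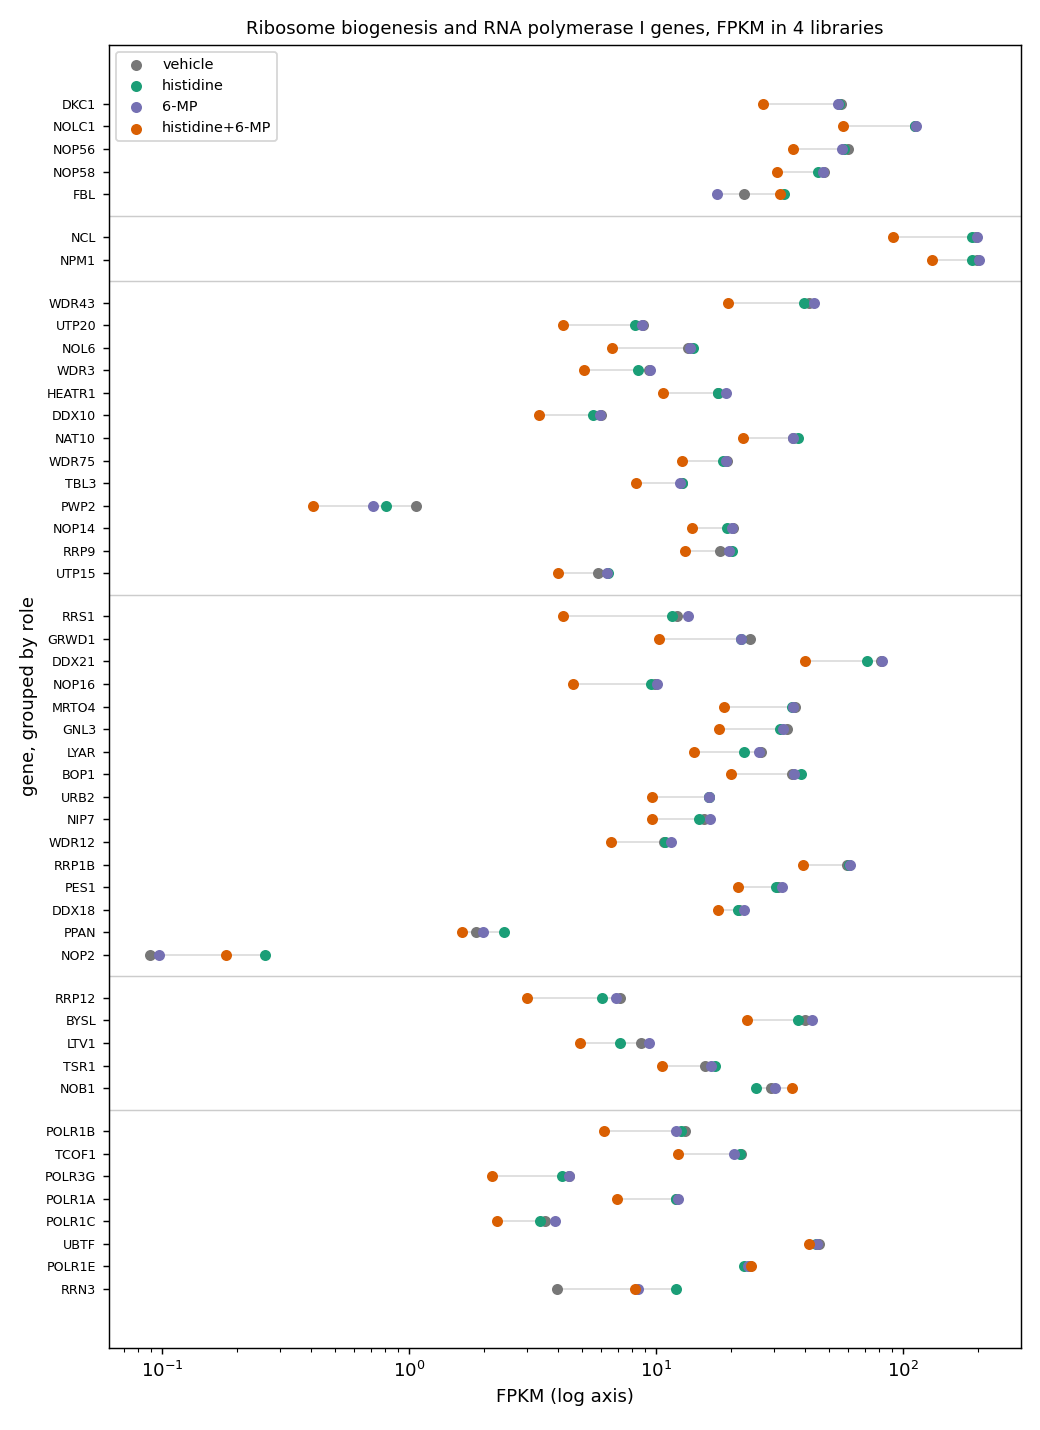
FPKM on a log axis for the 49 genes, grouped by role, with 1 point per library and a grey line over the range of each gene. From the top the groups are small nucleolar ribonucleoproteins, nucleolar phosphoproteins, small subunit processome, large subunit assembly, late small subunit maturation and RNA polymerases I and III. In 44 of the 49 genes the combined library is the leftmost point, while FBL, NOB1, POLR1E, RRN3 and NOP2 are the exceptions.

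Among the transcription genes, the catalytic core of RNA polymerase I was lower in the combined library. POLR1A, its largest subunit, stood at 12.1 FPKM with vehicle, 12 with histidine, 12.3 with 6-MP and 6.92 in the combined library (log2 fold change -0.72 against vehicle). POLR1B, the other large catalytic subunit, stood at 13, 12.6, 12.1 and 6.13 FPKM (-0.98). TCOF1, the treacle protein that works with the polymerase on ribosomal DNA, stood at 22, 21.7, 20.7 and 12.2 FPKM (-0.80). Each of these 3 genes had its 3 non-combined libraries close together and the combined library well below. TCOF1 overlaps CD74 on the opposite strand, which stood at 202, 191, 202 and 324 FPKM. Whether counting used the strand is not given in the sources used here. POLR3G, a subunit of RNA polymerase III, followed at -0.79, and POLR1C, a subunit shared by both polymerases, at -0.48. UBTF, the upstream binding factor that marks active ribosomal DNA, stood at 45.4, 44.2, 44.7 and 41.5 FPKM, a log2 fold change of -0.13 (-0.37 when scaled by the median ratio). Its counting interval of -0.20 to -0.07 lay below 0, and it did not pass the limit of 0.5. POLR1E, a further polymerase I subunit, stood at 24.0, 22.6, 23.4 and 24.1 FPKM, and its log2 fold change of 0.01 turned to -0.23 under the same scaling. The 8 genes of this role had a median of -0.60, with 4 at or below -0.5 (7.37% of all genes) and 1 above 0.5 (19.7% of all genes).

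RRN3, the initiation factor that brings RNA polymerase I to the promoter, ran against the rest. The gene, on the minus strand of chr16:15060033-15094311 (GRCh38), had 3.98 FPKM with vehicle, 12.1 with histidine, 8.46 with 6-MP and 8.22 in the combined library, from 236, 774, 537 and 439 reads. The vehicle library was the lowest and the histidine library the highest. Its log2 fold change was 1.39 for histidine, 0.92 for 6-MP and 0.89 for the combination, each against vehicle. Pseudogene copies of RRN3 share sequence with it. The log2 read ratio of the combination to vehicle was 1.05 for RRN3 by itself (counting interval 0.81 to 1.28). With the 2 listed copies added it was 0.92 (0.72 to 1.12). RRN3 also overlaps PDXDC1 on the opposite strand, and the counting setting for strand is not given in the sources used here.

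NCL and NPM1, the abundant nucleolar chaperones, were both lower with the combination but by different amounts. NCL, on chr2:231453531-231483641, stood at 197 FPKM with vehicle, 190 with histidine, 199 with 6-MP and 90.6 in the combined library, from 25196, 26217, 27288 and 10419 reads. NPM1 stood at 199, 189, 203 and 131 FPKM. The combined library was the lowest for both, with log2 fold changes of -1.12 for NCL and -0.60 for NPM1. At this depth the counting intervals were narrow and did not overlap, at -1.16 to -1.09 for NCL and -0.63 to -0.57 for NPM1. Adding the reads of the 13 listed NPM1 copies left its log2 read ratio at -0.60.

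**Figure D2:**
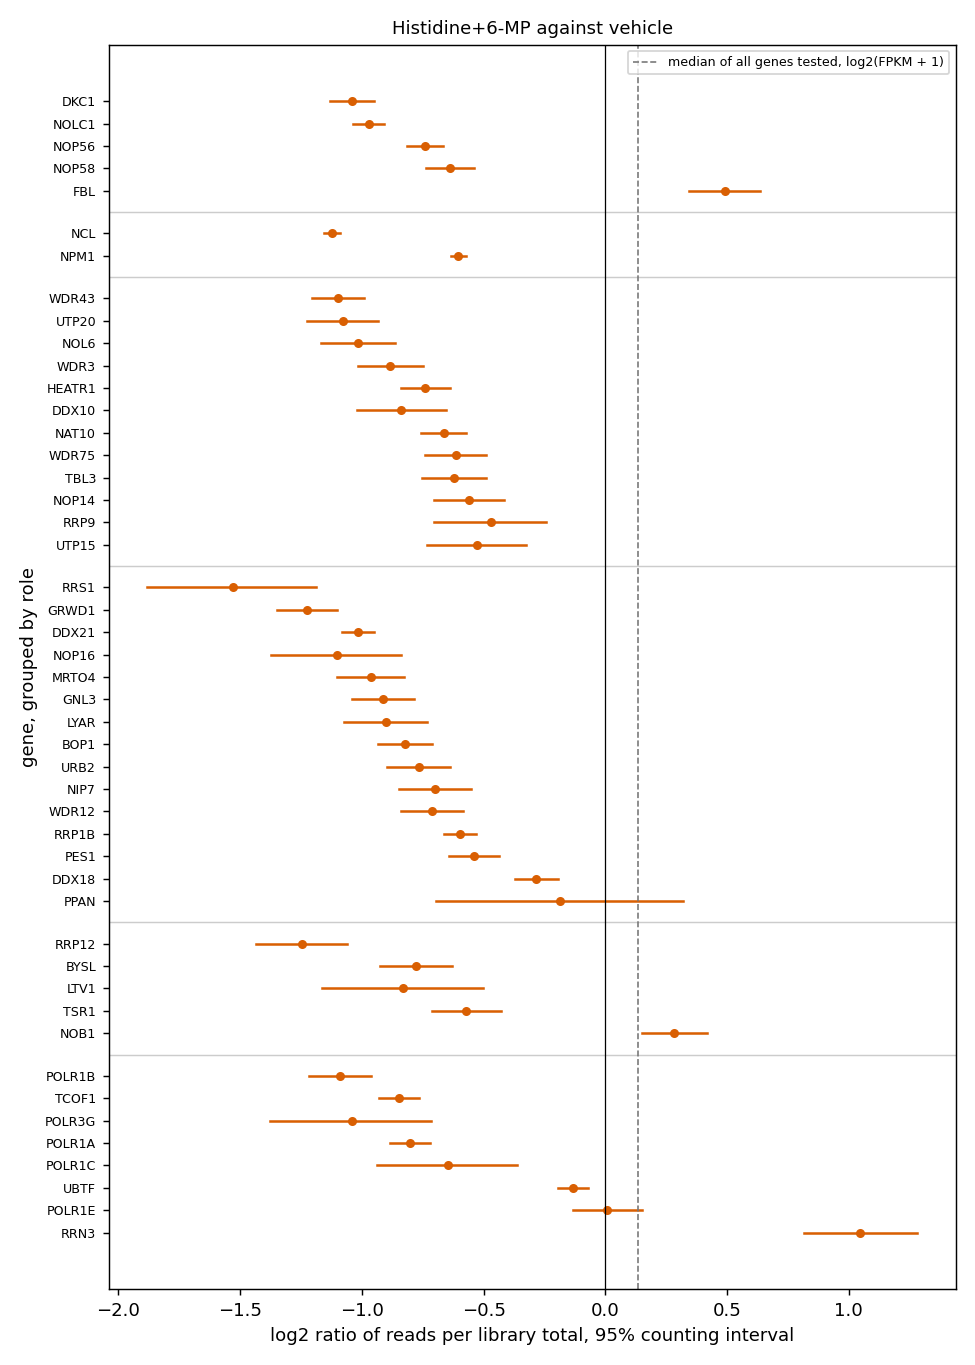
Log2 ratio of reads per library total, combined treatment against vehicle, for the 47 genes grouped by role in the same order as in the plot of levels. Points are the ratios and bars the exact 95% counting intervals, with no replicate error, and the dashed line marks the median log2 fold change of all genes. Bars lie wholly below 0 for 42 genes and wholly above 0 for NOB1, FBL and RRN3.

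The core proteins and the chaperone of small nucleolar ribonucleoproteins were lower in 4 of 5 cases (36.4% of all genes), with a median of -0.72. DKC1, the pseudouridine synthase dyskerin, stood at 55.8, 55.0, 54.3 and 27.1 FPKM in the vehicle, histidine, 6-MP and combined libraries, a log2 fold change of -1.01. NOLC1, a chaperone of these particles, stood at 112, 112, 112 and 57.1 FPKM (-0.96). Both genes were near-level over the first 3 libraries. NOP56 stood at 59.8, 57.7, 56.5 and 35.9 FPKM (-0.72). NOP58, its partner in the methylation-guiding particles, stood at 47.8, 45.1, 47.5 and 30.7 FPKM (-0.62). The exception was FBL, the methyltransferase fibrillarin of the same particles, at 22.6, 32.9, 17.6 and 31.7 FPKM from 691, 1088, 577 and 875 reads. FBL was higher in both libraries that had received histidine than in the other 2, with a log2 fold change of 0.47 for the combination against vehicle (0.24 when scaled by the median ratio), 0.82 against 6-MP and -0.05 against histidine.

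All 12 tested genes of the small subunit processome had a negative log2 fold change with the combination, where 36.4% of all genes did. Their median was -0.66, and 10 were at or below -0.5 (7.37% of all genes). WDR43, a processome component that also acts in polymerase I transcription, had the lowest value. It stood at 41.6, 39.6, 43.4 and 19.4 FPKM in the same library order, from 2444, 2515, 2733 and 1029 reads (-1.06). UTP20, a large scaffold protein, stood at 8.83, 8.20, 8.74 and 4.18 FPKM (-0.92). The remaining 10 ran from -0.92 for NOL6 to -0.44 for UTP15 and RRP9, and included the RNA acetyltransferase NAT10 at -0.64 and HEATR1 at -0.69. UTP15 overlaps ANKRA2 on the opposite strand, which stood at 4.21, 4.78, 3.89 and 13.1 FPKM. PWP2, the member of this role below the level filter, stood at 1.06, 0.803, 0.715 and 0.408 FPKM from 104, 85, 75 and 36 reads, so its combined library was again the lowest.

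All 15 tested genes of large subunit assembly were also negative, against the same 36.4% of all genes. Their median was -0.79, and 13 were at or below -0.5 (7.37% of all genes). RRS1, which loads the ribonucleoprotein of the small polymerase III ribosomal RNA, had the lowest value of the whole set. It stood at 12.1, 11.6, 13.4 and 4.19 FPKM, from 298, 308, 354 and 93 reads, a log2 fold change of -1.34, and its read ratio of -1.53 had a counting interval of -1.88 to -1.19. GRWD1, a chaperone for a large subunit ribosomal protein, stood at 23.9, 22, 22.1 and 10.2 FPKM (-1.15). In both genes the first 3 libraries differed little and the combined library stood apart. The RNA helicase DDX21 stood at 80.9, 71.4, 81.8 and 40.0 FPKM, and its log2 fold change of -0.998 lay just short of the limit. NOP16 stood at 9.88, 9.50, 10.0 and 4.6 FPKM (-0.96), and it overlaps HIGD2A on the opposite strand, at 23.3, 23.1, 26.8 and 38.6 FPKM. MRTO4, which resembles the ribosomal stalk protein, stood at 36.6, 35.6, 35.7 and 18.7 FPKM (-0.93). The genes of the PeBoW complex, which processes large subunit RNA, were less far down, with BOP1 at -0.79, WDR12 at -0.63 and PES1 at -0.52. DDX18, a helicase, had a log2 fold change of -0.27. Of 2 weakly read genes, PPAN stood at 1.86, 2.41, 1.99 and 1.64 FPKM from 61 to 108 reads, its counting interval of -0.69 to 0.32 spanned 0, and it overlaps P2RY11 on the same strand. The other was NOP2, a methyltransferase of ribosomal RNA, listed at 0.0894, 0.262, 0.0973 and 0.182 FPKM from 6, 19, 7 and 11 reads. Its counting interval spanned 0 for the combination against vehicle (-0.54 to 2.74) and lay above 0 for histidine against vehicle (0.17 to 3.16).

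In late small subunit maturation and export, 4 of 5 genes were at or below -0.5 (7.37% of all genes). RRP12, which takes part in export of the precursors, stood at 7.12, 6.06, 6.89 and 3.0 FPKM (-1.02). BYSL followed at -0.75, LTV1 at -0.72 and TSR1 at -0.53. NOB1, the endonuclease that makes the final cut of small subunit RNA in the cytoplasm, stood at 29.2, 25.4, 30.3 and 35.5 FPKM, the highest level being in the combined library, with a log2 fold change of 0.27 and a counting interval of 0.15 to 0.42. Scaled by the median ratio, its log2 fold change was 0.038.

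The levels of these genes were set beside other ribosome-related lists, 153 further ribosome biogenesis genes of which 148 passed the filter. Their median log2 fold change for the combination against vehicle was -0.22. At or below -1 there were 3 (2.03%), where 1.51% of all genes passed. At or below -0.5 there were 35 (23.6%), where 7.37% of all genes passed, and at or above 0.5 there were 5 (3.38%), where 19.7% did. By list, the medians were -0.14 for 9 other RNA polymerase I genes, -0.0027 for 21 other RNA polymerase III genes, -0.45 for 11 other small nucleolar ribonucleoprotein genes, -0.28 for 35 processome genes, -0.26 for 50 large subunit genes, -0.20 for 9 late small subunit genes and -0.073 for 13 exosome genes. The lowest were UTP18 of the processome (46.1, 45.8, 42.5 and 19.6 FPKM, -1.19), the assembly ATPase RUVBL1 (-1.04) and EBNA1BP2 (-1.02). The highest were NOP53 (124, 130, 127 and 199 FPKM, 0.68), DDX24 (0.60) and POLR1D, a subunit of polymerases I and III (0.54). The cytosolic ribosomal protein genes had a median of 0.11 over 83 tested genes, near that of all genes. They took 6.19%, 6.08%, 6.11% and 6.57% of the reads in the 4 libraries. The mitochondrial ribosomal protein genes had a median of -0.15 over 74.

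**Figure D3:**
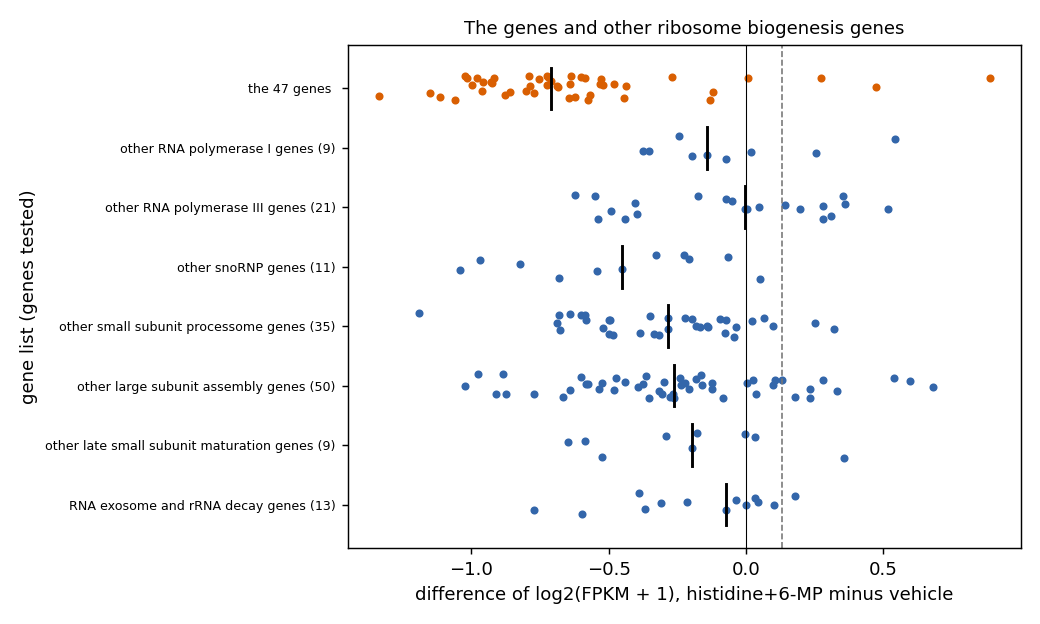
Log2 fold change of FPKM + 1, combined treatment against vehicle (horizontal axis), for the 47 genes and for 7 lists of other ribosome biogenesis genes, with the number tested in brackets. Points are genes, black bars are list medians and the dashed line is the median of all genes, 0.13. The 47 genes have the lowest median, -0.71, and the other small nucleolar ribonucleoprotein genes come next at -0.45.

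Promoter sequence was examined because many genes of this pathway carry the E-box CACGTG near their start. RefSeq windows on GRCh38.p14, from 250 bases before to 50 bases after the annotated start, were found for 38 of the 49 genes. Of these windows 30 had their last 45 bases in a GENCODE 29 transcript of the gene, and the rest were kept. CACGTG, which reads the same on both strands, lay in 13 of the 38 (34.2%). It lay in 10.4% of 8558 promoters of genes at this level and 7.43% of all 27305 promoters. CACGCG, searched on both strands, lay in 15 (39.5%), where 19.2% and 11.4% did. Of the 132 other ribosome biogenesis promoters 27.3% held CACGTG. In the 13 promoters the motif lay from 15 bases before to 35 bases after the start base, and all 13 fell in the 100 bases around the start, against 41.3% of the CACGTG promoters of genes at this level. This window was chosen after the positions had been seen. The motif is a description of letters, not of binding. The 13 stretches follow in order of log2 fold change with the combination, from -1.06 for WDR43 to 0.47 for FBL, with the E-box in capitals and 12 flanking bases on each side where the window allowed, each written 5′ to 3′ on the strand of its gene.
WDR43, chr2:28894658-28894687, plus strand: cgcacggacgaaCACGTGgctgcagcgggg
MRTO4, chr1:19251807-19251836, plus strand: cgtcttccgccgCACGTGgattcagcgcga
UTP20, chr12:101280083-101280112, plus strand: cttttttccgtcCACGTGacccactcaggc
NOL6, chr9:33473894-33473923, minus strand: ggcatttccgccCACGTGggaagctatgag
BYSL, chr6:41921515-41921544, plus strand: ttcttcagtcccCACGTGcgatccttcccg
LTV1, chr6:143843354-143843383, plus strand: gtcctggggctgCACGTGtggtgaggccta
NAT10, chr11:34105602-34105631, plus strand: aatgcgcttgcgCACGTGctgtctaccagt
PWP2, chr21:44107388-44107417, plus strand: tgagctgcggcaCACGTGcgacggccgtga
NOP14, chr4:2963374-2963403, minus strand: tccgcggcccggCACGTGtcttagggtagc
PES1, chr22:30591880-30591909, minus strand: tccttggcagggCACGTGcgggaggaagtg
RRP9, chr3:51941892-51941921, minus strand: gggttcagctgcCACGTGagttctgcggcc
NOP2, chr12:6568242-6568268, minus strand: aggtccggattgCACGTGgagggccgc
FBL, chr19:39846356-39846385, minus strand: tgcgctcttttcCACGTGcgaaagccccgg

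Genes with and without the E-box lay close together. The 11 tested genes with it had a median log2 fold change of -0.72 and the 25 tested genes with a window but without it had -0.68. FBL carries it 6 bases after the start and lay at 0.47. The full windows of the 3 lowest genes after RRS1 and of the highest gene show how the motifs differed among them, with CACGTG or CACGCG in capitals.
GRWD1, chr19:48445733-48446032, plus strand: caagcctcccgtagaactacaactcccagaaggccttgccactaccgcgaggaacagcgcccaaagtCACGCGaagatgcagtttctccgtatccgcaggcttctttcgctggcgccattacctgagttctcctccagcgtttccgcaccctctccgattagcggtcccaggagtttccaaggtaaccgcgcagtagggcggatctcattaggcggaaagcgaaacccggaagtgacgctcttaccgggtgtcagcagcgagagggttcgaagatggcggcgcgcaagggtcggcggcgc
NCL, chr2:231464435-231464734, minus strand: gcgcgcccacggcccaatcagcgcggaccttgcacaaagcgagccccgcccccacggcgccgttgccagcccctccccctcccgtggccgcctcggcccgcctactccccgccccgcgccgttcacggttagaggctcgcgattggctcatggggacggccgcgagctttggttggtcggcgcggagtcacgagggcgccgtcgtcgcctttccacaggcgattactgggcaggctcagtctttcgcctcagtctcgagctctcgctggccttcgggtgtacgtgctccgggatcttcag
WDR43, chr2:28894417-28894716, plus strand: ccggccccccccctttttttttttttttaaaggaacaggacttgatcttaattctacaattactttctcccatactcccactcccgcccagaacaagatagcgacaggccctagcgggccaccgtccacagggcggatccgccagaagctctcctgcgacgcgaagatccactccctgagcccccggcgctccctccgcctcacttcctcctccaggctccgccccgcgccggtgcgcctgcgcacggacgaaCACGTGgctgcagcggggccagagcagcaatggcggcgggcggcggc
RRN3, chr16:15094286-15094585, minus strand: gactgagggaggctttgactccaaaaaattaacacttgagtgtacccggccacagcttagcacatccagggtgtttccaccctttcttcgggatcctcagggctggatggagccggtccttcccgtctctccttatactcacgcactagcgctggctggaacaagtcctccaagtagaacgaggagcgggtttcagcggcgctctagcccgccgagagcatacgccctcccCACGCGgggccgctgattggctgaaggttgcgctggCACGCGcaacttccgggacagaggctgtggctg

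Of these, GRWD1 held 1 CACGCG, NCL neither motif, WDR43 1 CACGTG at 3 bases after the start, and RRN3, which was higher with each treatment than with vehicle, 2 CACGCG. No match says only that those letters are absent from the window.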

How the data were processed

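RNA from Reh-6-MPR cells was sequenced with 1 library per treatment. Per the submitters' processing notes, Trimmomatic, HISAT2, HTSeq and Cufflinks were used on GRCh38 (hg38), and their versions are not given in the sources used here. The deposited values are FPKM per gene, made by the authors, and no column of values lacked a sample. Reads were recovered from the FPKM steps, and were whole to within 0.004 reads in all libraries for 29830 of 29833 genes. Recovered reads summed to 99.8751% to 99.9096% of each library total. Gene lengths were taken as multiples (up to 6) of the smallest length that gave whole reads, where this came within 10% of the annotated length. That limit was set after recovered sums had been compared with the totals.

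Log2 fold changes used a pseudocount of 1 and the 12750 genes whose FPKM averaged 1 or more. Limits were 1 and 0.5 on the log2 scale. Read ratios have exact Clopper-Pearson 95% intervals, for counting error only. No count test was run, since there was 1 library per treatment. Members and lists were chosen with earlier results of these data known. Values in all libraries are given for the 12 lowest and 6 highest members of the combined treatment against vehicle and for POLR1A, POLR1B, RRN3, UBTF, TCOF1, NCL, NPM1, FBL, DKC1, NOP56, NOP58 and NOP2. Of the other genes the 3 lowest and the 3 highest were named by rule. PWP2 and genes given by a fold change alone illustrate their roles. Promoters come from RefSeq. Scripts were tested on simulated data. Python 3.11.15, numpy 2.4.6, scipy 1.17.1, pandas 2.3.3 and matplotlib 3.10.9 were used. Alternatives were another pseudocount, no filter or a mean of at least 5 FPKM, scaling by the median ratio or to the same total (TPM), and read ratios without a pseudocount. The result of 1 marker list is not reported here.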

Additional observations from a re-analysis of the deposited data

Results flagged for a closer look

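RRN3 moved in opposite directions when 6-MP was given alone and when it was added to histidine. The log2 fold change was 0.92 for 6-MP against vehicle and -0.50 for the combination against histidine. The difference was not tested, since each treatment had 1 library.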

How the results depend on the processing

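Every median of the set kept its sign in the comparisons with the combined treatment. Scaling by the median ratio, which puts the median of all genes at -0.067, gave medians of -0.92 against vehicle, -0.84 against histidine, -0.93 against 6-MP and -0.88 for the departure from additivity, with 17, 12, 18 and 12 members at or below -1, 1 at or above 0.5 for histidine, and POLR1E at -0.23. Of all genes 2.64% were then at or below -1 and 15.0% at or below -0.5 for the combination against vehicle, where the values as reported gave 1.51% and 7.37%. Under other pseudocounts, filters or scalings, shares of all genes were worked out only for this comparison and only downward. The other counts under those settings therefore have no share beside them and say nothing about the members relative to all genes. NOB1 went to 0.038, FBL to 0.24 and UBTF to -0.37. A pseudocount of 0.1 gave 12, 8 and 10 members at or below -1 in the 3 comparisons, and read ratios without a pseudocount gave 12, 9 and 11, since a smaller pseudocount shrinks low genes less, and 2.62% and 2.79% of all genes passed against vehicle. Both, and TPM scaling, put 1 member at or above 1 for 6-MP and for the combination against vehicle. TPM also gave 9 at or below -1 against 6-MP, 2 at or above 0.5 against vehicle and 1 against histidine. Keeping the 22 tested members that overlap no other listed gene, an alternative chosen after seeing the data, left a median of -0.72 against vehicle. Its counts at or below a limit are lower because fewer genes were counted. At or below -0.5 there were 19 against vehicle (7.37% of all genes), 19 against histidine (7.53%), 20 against 6-MP (6.88%) and 20 for the departure (8.49%). At or below -1 there were 2 (1.51%), 1 (1.4%), 2 (1.2%) and 2 (1.91%) in the same order. RRN3 is left out here because it overlaps PDXDC1, which lowers the counts at or above a limit. For histidine 0 were then at or above 1 (0.8% of all genes) and 1 at or above 0.5 (2.93%). At or above 0.5 there were 0 for 6-MP (2.28%) and 0 for the combination against vehicle (19.7%). No paired analysis was possible because a single library represents each treatment, and leaving out a replicate was likewise not possible. Among single named genes over the 6 settings of pseudocount, filter and scaling, 114 values stayed within counting error, 22 moved beyond it and 1, POLR1E, turned. The filters cannot change the fold change of a single gene, so the values under them stayed by construction and are no check. Most of the 22 moves, and the turn of POLR1E, came with scaling by the median ratio, under which most named genes moved. Genes with few reads, such as NOP2, PPAN and PWP2, had wide counting intervals, and why few reads were counted for them was not tested.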

Other observations

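Some other ribosome biogenesis genes varied among the libraries without following the combined treatment. These were picked after their values were seen. AATF, a processome protein, had 142, 29, 77 and 80 reads in the vehicle, histidine, 6-MP and combined libraries. SURF6, a large subunit assembly protein, had 5, 44, 10 and 31 reads in the same order, the higher counts being in the libraries with histidine, as for FBL. DDX24 stood at 3.84, 4.45, 6.42 and 6.31 FPKM, the higher levels being in the libraries with 6-MP. AATF and SURF6 had means below 1 FPKM and were left out of the fold changes.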
